A study of Mus musculus with 6 samples.

Results

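The sirtuins, Sirt1 to Sirt7, were described in cultured adult mouse neural stem and progenitor cells with and without active SIRT1. The members were taken by gene symbol, each by the probe set that the platform annotation pairs with that gene alone. All 7 genes were found among 19937 genes measured, each with 1 probe set and none with a probe set shared with another gene. Sirt1 inactive mice carried NestinCre together with Sirt1lox/lox alleles, and control mice carried Sirt1lox/lox alleles without Cre. Both genotypes were of the 129SV strain, and cells were taken at 8 weeks of age. Nestin drives Cre in neural stem and progenitor cells. The floxed alleles are common to both groups, while Cre itself is present in the Sirt1 inactive group alone, so Cre and loss of SIRT1 cannot be told apart. Cells grew first as neurospheres and then attached, in EGF and bFGF, and were collected while proliferating at passage 2. Each genotype had 3 samples called biological replicates, with 1 Affymetrix whole-transcript array per sample; the labels do not say whether mice were pooled, so the p-values measure the spread between these samples.

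Sirtuins are enzymes related to yeast Sir2 that remove acetyl and other acyl groups from proteins and consume NAD in doing so, which ties their activity to the metabolic state of the cell. SIRT1, SIRT6 and SIRT7 act mainly in the nucleus, SIRT2 mainly in the cytoplasm, and SIRT3, SIRT4 and SIRT5 in mitochondria. SIRT1 deacetylates histones and transcription factors such as p53, FOXO proteins and NF-kB, and in the brain SIRT2 is known as an abundant protein of oligodendrocytes and myelin.

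The promoter window of Sirt1 is shown because Sirt1 is the gene the genotype alters and its transcript the sirtuin that differed most between the groups. It spans 250 bases before to 50 bases after the RefSeq transcription start (GRCm38.p6, chr10:63338986-63339285, minus strand), with the E-box CACGTG in capitals.
Sirt1 promoter: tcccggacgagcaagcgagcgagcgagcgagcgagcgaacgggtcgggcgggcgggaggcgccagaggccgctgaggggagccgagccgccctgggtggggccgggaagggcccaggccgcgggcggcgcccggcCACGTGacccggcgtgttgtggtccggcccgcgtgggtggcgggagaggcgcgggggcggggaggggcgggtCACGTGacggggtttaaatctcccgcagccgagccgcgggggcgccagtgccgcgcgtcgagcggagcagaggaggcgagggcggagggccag
The window holds the palindromic CACGTG 2 times, beginning 115 and 43 bases before the start. Of 32851 RefSeq promoter windows of the same length, 7.15% hold CACGTG at least once and 0.594% hold it 2 or more times. The listed windows of Sirt2 to Sirt7, 8 in all, hold none. The Sirt1 window has 47 CpG dinucleotides, against 15 to 24 in the windows of the other sirtuins and a median of 7 over all windows. A match is a description of the letters and not of binding.

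The RMA values, on a log2 scale, had array medians of 7.36 to 7.39. Control replicate 3 stood apart from the others, with a median absolute distance of 0.125 to the mean of the other 5 arrays, against 0.070 to 0.10 for the rest. Some markers were read beside the neural stem and progenitor label. Nes, the intermediate filament gene nestin, read 11.65, 11.68 and 11.57 in the Sirt1 inactive arrays and 11.70, 11.69 and 11.55 in the control arrays, and both Nes and Sox2, a stem cell transcription factor, were at or above the 97th percentile of every array. Other markers of that list varied, with Slc1a3 at the 99th percentile and Prom1 between the 44th and the 54th. The oligodendrocyte lineage gene Olig2 and the astrocyte gene Aldoc were at or above the 98th, so brightness alone does not single out the cell type. Gfap, the glial filament gene, read 10.12, 10.25 and 9.65 in the Sirt1 inactive arrays and 9.55, 9.87 and 7.41 in the control arrays, so control replicate 3 was far below the others. The microglial gene Aif1 lay between the 28th and the 31st percentile of each array. RMA values have no true zero, so a marker cannot be read as absent.

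Sirt1 read 8.26, 8.33 and 8.25 in the Sirt1 inactive arrays and 8.73, 8.78 and 8.55 in the control arrays. Every Sirt1 inactive array was below every control array, which held for 6.71% of all probe sets, and the lowest control was replicate 3. The means were 8.28 ± 0.04 in Sirt1 inactive cells and 8.68 ± 0.12 in control cells (SD, n = 3 each). The difference was -0.41 (SE 0.08, 95% interval -0.58 to -0.23), which is 0.755 times the control level, with an interval of 0.667 to 0.855. It was not past the threshold of 0.05 over all 22961 probe sets tested (limma with Benjamini-Hochberg adjustment, adjusted p = 0.959; unadjusted p = 0.00101), and the exact two-sided permutation test gave p = 0.1, the smallest that 3 against 3 allows. No probe set passed, which is a background of 0% at the adjusted threshold. At an unadjusted p under 0.05 the count was 830, or 3.61%, and 226 of these were higher (0.984%) and 604 lower (2.63%), a split that became 382 higher and 371 lower with array medians subtracted. Sirt1 had the 9th smallest p of all, and 1.05% of probe sets had a larger absolute difference.

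Within pairs of arrays of the same replicate number the Sirt1 differences were -0.47, -0.45 and -0.30. As the groups did not overlap, any pairing would give differences below 0, so their shared direction adds nothing. With the replicate number as a block, the Sirt1 difference was -0.41 with an unadjusted p of 0.000991 (limma, adjusted p = 0.51), where 1741 probe sets were at an unadjusted p under 0.05 and that of Sirt1 was the 41st smallest. Without control replicate 3 the difference was -0.47 and Sirt1 had the 3rd smallest p. The rank was less high with a Sirt1 inactive array left out, at 30th without replicate 1, 12th without replicate 2 and 43rd without replicate 3. Sirt1 lay at the 63rd or 64th percentile of the Sirt1 inactive arrays and between the 67th and the 70th of the control arrays. The probe set still read well above the lower quartile of each array (5.78 to 5.83) in the Sirt1 inactive cultures. As brightness depends on the probes and RMA values have no true zero, how much transcript remained cannot be read from this. Fewer cells with the transcript and less transcript per cell cannot be told apart in such bulk samples. A widely used floxed Sirt1 allele deletes a single exon of the catalytic core and leaves a shortened transcript; the labels do not name the allele of these mice. The probe set is described as a whole-transcript measurement, and its value does not measure enzyme activity. Whether any of its probes lie in a deleted exon was not tested. A lower value from a lost exon therefore cannot be told apart from a lower transcript level.

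**Figure D1:**
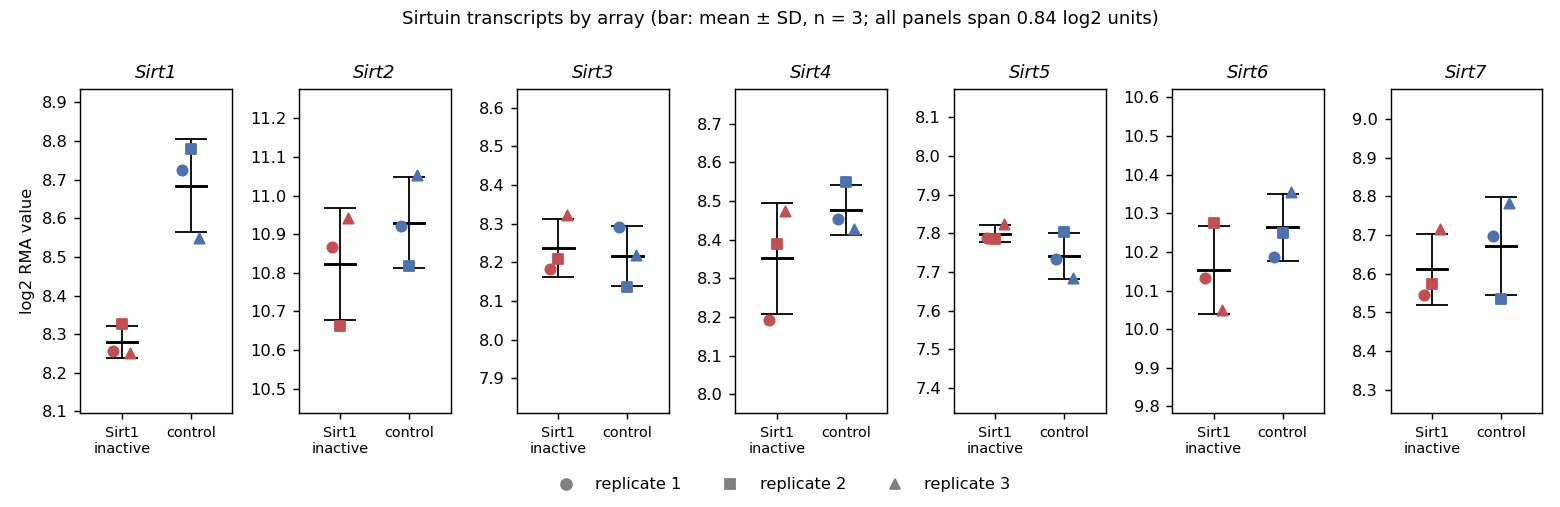
Log2 RMA values (vertical axis) of each sirtuin in 3 Sirt1 inactive arrays (red, left) and 3 control arrays (blue, right), with the replicate number as the symbol and mean ± SD as bars; all panels cover the same span of log2 units. The groups are separate for Sirt1, 8.25 to 8.33 in Sirt1 inactive and 8.55 to 8.78 in control arrays, and overlap for the other 6 genes.

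Markers of other cell types also differed in level between these arrays. All 8 neuroblast and neuron markers had differences below 0, with a mean level of 8.25 to 8.48 in the Sirt1 inactive and 8.44 to 8.93 in the control arrays. Of these, 3 had an unadjusted p under 0.05 (limma), namely Syt1 (-0.39), Gap43 (-0.31) and Dcx (-0.31), and none passed. Over all probe sets 2.63% were lower at that threshold, but this list was chosen with earlier results of these data known. The Syt1 groups overlapped, and the mean level of the list was highest in control replicate 3, at 8.93. All 8 microglia and macrophage markers were below 0 as well, with a mean level of 6.81 to 6.83 in the Sirt1 inactive arrays and 6.89 to 6.97 in the control arrays. These means lay below the array medians of 7.36 to 7.39. The differences ran from -0.19 for Tmem119 to -0.01 for Csf1r and -0.00 for Aif1. Of all probe sets tested, 60.1% were below 0. The skew depended on brightness. At an unadjusted p under 0.05 (limma), 604 were lower and 226 higher over all, against 182 and 130 among those at or above median brightness. The share below 0 among probe sets as dim as the microglial markers was not counted. Of the 8 oligodendrocyte progenitor markers, a list chosen with some of its values known, 4 were above and 4 below 0. Those above were Gpr17 (0.75), C1ql1 (0.44), Sox10 (0.28) and Pdgfra (0.79), all with groups that did not overlap. Each had an unadjusted p under 0.05 (limma), and none passed over all probe sets. Because some values were known when the list was chosen, this count cannot be weighed against the share of all probe sets. Those below were Lhfpl3 (-0.24), Olig2 (-0.15), Cspg4 (-0.12) and Olig1 (-0.07). Their groups overlapped, and none had an unadjusted p under 0.05. The mean level of the 8 was 9.70 to 9.91 in the Sirt1 inactive arrays and 9.54 to 9.63 in the control arrays. Of the 7 astrocyte markers 5 were above 0, with a median difference of 0.141, and none had an unadjusted p under 0.05. Their mean level was 9.78 to 9.89 in the Sirt1 inactive arrays and 9.08 to 9.84 in the control arrays, lowest in control replicate 3. Aldoc, with the smallest p of the list, differed by 0.27 (SE 0.13, limma, unadjusted p = 0.0642), and its groups did not overlap. Gfap differed by 1.06 (SE 0.60) and Aqp4, the astrocyte water channel, by 0.56 (SE 0.51). Aqp4 read 10.29, 10.57 and 10.05 in the Sirt1 inactive arrays and 10.37, 10.45 and 8.42 in the control arrays. Control replicate 3 was thus far below the others for both Gfap and Aqp4. Those below 0 were S100b (-0.19) and Gjb6 (-0.02). The 11 neural stem and progenitor markers had a mean level of 10.78 to 10.83 in the Sirt1 inactive arrays and 10.75 to 10.80 in the control arrays. The part of such differences in the Sirt1 value was not tested.

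The other nuclear sirtuins had small differences that did not pass. Sirt6, which acts in DNA repair, telomere maintenance and glucose metabolism, read 10.13, 10.27 and 10.05 in the Sirt1 inactive arrays and 10.19, 10.25 and 10.36 in the control arrays. The groups overlapped, with Sirt1 inactive replicate 2 above 2 of the 3 controls. The Sirt6 difference was -0.11 (SE 0.08, 95% interval -0.30 to 0.08). It did not pass (limma, adjusted p = 0.959), and its direction differed between the pairs, at -0.05, 0.03 and -0.31. Without Sirt1 inactive replicate 2 it was -0.17, and without control replicate 3 it was -0.06. Sirt7, a nucleolar deacetylase linked to ribosomal RNA transcription, read 8.55, 8.57 and 8.71 in the Sirt1 inactive arrays and 8.70, 8.53 and 8.78 in the control arrays. In both genotypes replicate 3 was the highest. The Sirt7 difference was -0.06 (SE 0.09, 95% interval -0.26 to 0.14), it did not pass (limma, adjusted p = 0.959), and without control replicate 3 it was -0.005.

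Sirt2, whose protein deacetylates tubulin, read 10.87, 10.66 and 10.94 in the Sirt1 inactive arrays and 10.92, 10.82 and 11.05 in the control arrays. The groups overlapped, but within each pair of arrays of the same number the Sirt1 inactive array was lower, with differences of -0.06, -0.16 and -0.11. The order of the replicates was also the same in both genotypes, with number 2 lowest and number 3 highest. The Sirt2 difference was -0.11 (SE 0.10, 95% interval -0.33 to 0.12; limma, adjusted p = 0.959), and with the replicate block its standard error was 0.06 and its unadjusted p 0.111. Array weights, which count arrays by how well they follow the fit, gave -0.01. Because Sirt2 is abundant in oligodendrocytes, the myelinating oligodendrocyte markers are set beside it. All 11 of them had differences below 0, with a median of -0.084 against -0.024 over all genes. Their mean level was 8.49, 8.36 and 8.39 in the Sirt1 inactive arrays and 8.57, 8.58 and 8.38 in the control arrays. In control replicate 3 these markers were the lowest of the controls while Sirt2 was the highest. Mbp, a major protein of myelin, differed by -0.16 (SE 0.10), and Mal, a proteolipid of myelin, by -0.17 (SE 0.11); neither passed (limma, adjusted p = 0.959 for both). The part of oligodendrocyte content in the Sirt2 values was not tested.

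None of the mitochondrial sirtuins passed the test either, and their groups overlapped. Sirt3, the main deacetylase of the mitochondrial matrix, read 8.18, 8.21 and 8.32 in the Sirt1 inactive arrays and 8.29, 8.14 and 8.22 in the control arrays. Its difference was 0.02 (SE 0.07, 95% interval -0.14 to 0.19; limma, adjusted p = 0.98), and its sign turned when Sirt1 inactive replicate 3 or control replicate 2 was left out. Sirt4, which restrains glutamate dehydrogenase, read 8.19, 8.39 and 8.47 in the Sirt1 inactive arrays and 8.45, 8.55 and 8.43 in the control arrays. Sirt1 inactive replicate 1 was the lowest of the 6, and the other arrays overlapped. The Sirt4 difference was -0.13 (SE 0.09, 95% interval -0.33 to 0.08; limma, adjusted p = 0.959), and without Sirt1 inactive replicate 1 it was -0.05. Sirt5, which removes succinyl and malonyl groups, read 7.79, 7.78 and 7.82 in the Sirt1 inactive arrays and 7.73, 7.80 and 7.68 in the control arrays. The Sirt5 difference was 0.06 (SE 0.06, 95% interval -0.08 to 0.20; limma, adjusted p = 0.959), and without control replicate 3 it was 0.03. Its values were the steadiest of the family, with a pooled SD of 0.045 within groups, where 8% of probe sets had a smaller one.

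Over Sirt2 to Sirt7, 2 differences were above 0 and 4 below, with a median of -0.084, against -0.022 over all probe sets. None of the 6 had an unadjusted p under 0.05, where the background is 3.61%, and none had groups that did not overlap, where the background is 9.33%. The 95% intervals together ran from 0.794 to 1.15 times the control level, so a rise of any other sirtuin beyond 1.15-fold, or a fall below 0.794-fold, lay outside every interval on the RMA scale. RMA values can understate changes in RNA, and a p that misses the threshold does not show that levels were equal. All 7 sirtuins lay between the 55th and the 94th percentile of each array; as brightness also depends on the probes, their levels are not ranked against each other.

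**Figure D2:**
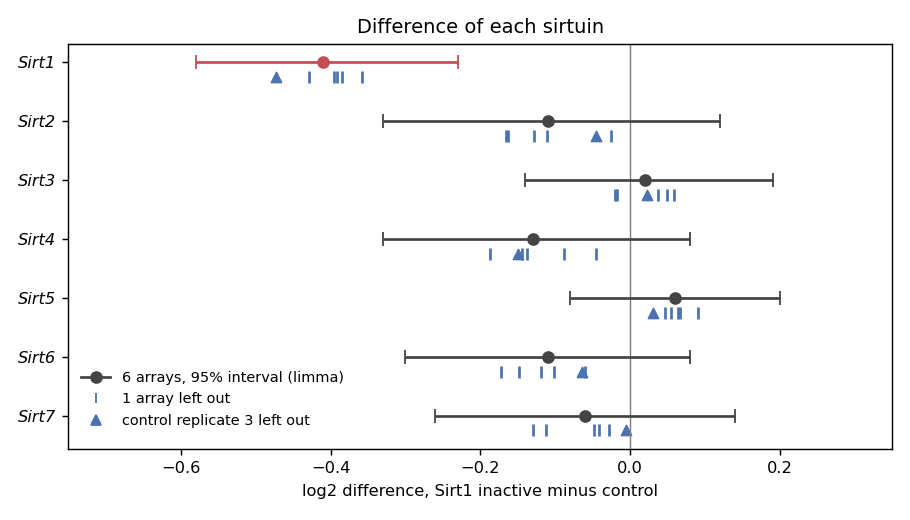
Log2 difference of each sirtuin, Sirt1 inactive minus control, with its 95% interval over 6 arrays (circles and bars, limma), and below it the differences with 1 array left out (ticks) or with control replicate 3 left out (triangles). The Sirt1 interval runs from -0.58 to -0.23, and the intervals of the other 6 include 0.

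Whether the Sirt1 difference stood out from that of its family was asked within each array. Sirt1 minus the mean of the other 6 sirtuins was -0.69, -0.65 and -0.80 in the Sirt1 inactive arrays and -0.32, -0.24 and -0.54 in the control arrays, so the groups did not overlap. The means were -0.72 ± 0.08 in Sirt1 inactive and -0.37 ± 0.16 in control cells (SD, n = 3 each), and they differed by -0.35 with an exact two-sided permutation p = 0.1, the smallest possible. The mean of the other sirtuins itself was 8.95, 8.98 and 9.05 in the Sirt1 inactive arrays and 9.05, 9.01 and 9.09 in the control arrays. Set against single members, the Sirt1 difference minus that of Sirt3 was -0.43, of Sirt4 -0.28, of Sirt5 -0.46 and of Sirt7 -0.34, each with groups that did not overlap. Against Sirt2 and Sirt6 the values were -0.30 and -0.29, and the groups overlapped (exact permutation p = 0.2 for both). These 6 comparisons share the Sirt1 values, and no exact permutation p among them can go below 0.1. The Sirt1 groups were separate without any subtraction and the other sirtuins differed little. The comparisons therefore largely restate the Sirt1 difference, and no background share is set beside them.

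**Figure D3:**
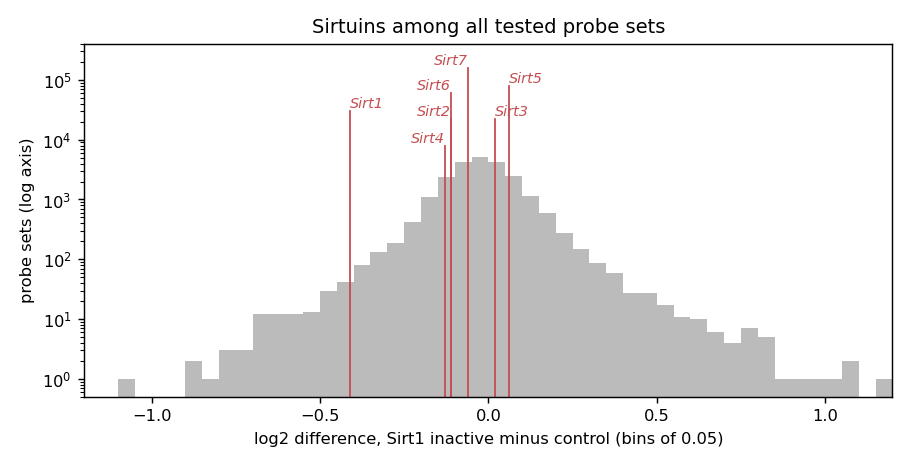
Number of probe sets (vertical log axis) by log2 difference, Sirt1 inactive minus control, in bins of 0.05, with a labelled red line at each sirtuin; the heights of the lines serve to place the names. Sirt1, at -0.41, lies in the lower tail, beyond the 1st percentile of -0.34, and the others between -0.13 and 0.06.

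Genes whose 6 array values most resembled those of a sirtuin were found by the root mean square difference after each gene was centred on its mean, over 18631 named genes. Slfn9, of the Schlafen family, was closest to Sirt1, at 0.084 against a median of 0.230. Slfn9 read 8.14, 8.10 and 8.11 in the Sirt1 inactive arrays and 8.35, 8.58 and 8.36 in the control arrays. Next were Ces2g (0.101), Lypd4 (0.105), Ighg3 (0.107) and Nnat (0.108), the last an imprinted gene of the developing brain. Ces2g, Lypd4 and Ighg3 read 5.75 or less in every array, below the lower quartiles of 5.78 to 5.83, and Slfn9, Ces2g and Ighg3 have close relatives whose transcripts their probes could also read. Their differences were -0.31 for Slfn9, -0.24 for Ces2g, -0.26 for Lypd4, -0.23 for Ighg3 and -0.34 for Nnat, and none passed (limma, adjusted p = 0.959). These genes were picked for their likeness to Sirt1 over the same arrays. Differences below 0 therefore follow from the choice and are not a separate result.

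The measure depends on the size of the changes, and the 6 values of Sirt1 spanned 0.53 while those of Sirt5 spanned 0.14, so distances are not compared between sirtuins. For the other sirtuins, the closest genes were Sowahb and Olfr818 to Sirt2, Sdf4 and Cyb561d2 to Sirt3, Rfx5 and Fam214a to Sirt4, Elovl5 and Fads1 to Sirt5, Tmem174 and Zfp746 to Sirt6, and Olfr1443 and Olfr1502 to Sirt7, all at 0.010 to 0.038. Between 1851 and 7568 of the 18631 genes lay within 0.1 of each of these sirtuins, against 1 for Sirt1. The closest 2 are thus picks from many similar profiles. Olfr818, Olfr1443 and Olfr1502 read 4.90 or less in every array, below the lower quartiles, and Tmem174 read 5.62 to 5.91, near them.

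The pathway around the sirtuins was read from 7 lists of genes, with 119 distinct genes measured. None passed over all probe sets in either direction (limma, 0 of 119). At an unadjusted p under 0.05 there were 5 of 119, or 4.2%, against the background of 3.61%, with 1 higher and 4 lower. The groups did not overlap for 17, or 14.3%, against 9.33%. The lists were chosen with earlier results of these data known, so these shares cannot be weighed against those of all probe sets.

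NAD is made from nicotinamide, nicotinic acid, nicotinamide riboside or tryptophan. Of 19 measured genes of NAD synthesis and salvage, 10 were above and 9 below 0, with a median difference of 0.004 that turned to -0.030 without control replicate 1. Qprt, the enzyme that feeds the tryptophan route into NAD, read 6.85, 6.75 and 6.86 in the Sirt1 inactive arrays and 6.92, 7.0 and 7.18 in the control arrays. Its groups did not overlap, and its difference was -0.21 (SE 0.08; limma, unadjusted p = 0.0331, adjusted p = 0.959), or -0.14 without control replicate 3. Nmrk1, a nicotinamide riboside kinase, read 7.47, 7.67 and 7.58 in the Sirt1 inactive arrays and 7.53, 7.33 and 6.91 in the control arrays. Its difference of 0.32 (SE 0.15) was 0.14 without control replicate 3, the array in which it was lowest, and 0.45 without control replicate 1, where its unadjusted p was 0.0127. Nampt, the rate-limiting enzyme of salvage from nicotinamide and named here for that role after its values were seen, differed by 0.03 (SE 0.10), and its sign turned without Sirt1 inactive replicate 2 (-0.06) or control replicate 1 (-0.03).

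Among 9 other NAD-consuming enzymes 3 were above and 6 below 0, with a median of -0.059, or -0.030 without control replicate 3. Bst1, an ADP-ribosyl cyclase, differed by -0.10 (SE 0.06) and Tnks2, a tankyrase that adds ADP-ribose chains to proteins, by -0.07 (SE 0.06). The groups did not overlap for these 2 genes, but neither passed (limma, adjusted p = 0.959).

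SIRT1 is itself regulated by protein partners, modifying enzymes, transcription factors and microRNAs. Of 21 measured regulators 6 were above and 15 below 0, with differences between -0.15 and 0.05, a median of -0.030, and none at an unadjusted p under 0.05. The median was -0.058 without Sirt1 inactive replicate 2, -0.057 without control replicate 1 and -0.014 without control replicate 2. Setd7, a methyltransferase that binds SIRT1, differed by -0.15 (SE 0.09). With 1 array left out the Setd7 difference ran from -0.24, without control replicate 2 and with an unadjusted p of 0.0142, to -0.10, and with array weights it was -0.06. Ccar2, which binds and inhibits SIRT1 and is named after its values were seen, differed by -0.08 (SE 0.07). Mir34a encodes a microRNA known to repress Sirt1 messenger RNA, and its mature forms are shown because they are the sequences by which it pairs with targets, with the seed, bases 2 to 8, in capitals (RefSeq, GRCm38.p6, chr4:150068473-150068494 and chr4:150068517-150068537, plus strand).
mmu-miR-34a-5p: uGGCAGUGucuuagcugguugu
mmu-miR-34a-3p: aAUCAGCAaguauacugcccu
The Mir34a probe set read 4.61, 4.64 and 4.73 in the Sirt1 inactive arrays and 4.74, 4.74 and 4.82 in the control arrays. Every Sirt1 inactive array was below every control array, by a difference of -0.11 (SE 0.06) that did not pass (limma, adjusted p = 0.959; exact permutation p = 0.1). The probe set was dim, between the 11th and the 13th percentile of each array, and the labelling of such arrays does not measure the mature microRNA.

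Of 30 measured SIRT1 substrates 12 were above and 18 below 0, with a median of -0.018 and differences between -0.11 and 0.16. None was at an unadjusted p under 0.05. The smallest p belonged to Map1lc3b, a protein of autophagosome membranes, at -0.09 (SE 0.06), and Rela, the p65 subunit of NF-kB, at -0.09 (SE 0.06). Rela read 10.43, 10.44 and 10.43 in the Sirt1 inactive arrays and 10.54, 10.46 and 10.55 in the control arrays. The groups were separate for both genes by less than 0.1, and neither passed (limma, adjusted p = 0.959).

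Substrates of the mitochondrial sirtuins were above 0 in 16 of 20, with a median difference of 0.051, against 39% above 0 and a median of -0.024 over all genes. The 2 are not alike, as 17 of the 20 were at or above median brightness while all genes include dim ones. The list was also chosen with earlier results known, so its count cannot be weighed against that share. The list median was 0.082 without Sirt1 inactive replicate 1 and 0.057 to 0.064 without any other array. Their mean level was 9.94 in each of the Sirt1 inactive arrays and 9.88, 9.89 and 9.86 in the control arrays. Ppif, or cyclophilin D, a regulator of the mitochondrial permeability pore that SIRT3 deacetylates, read 11.20, 11.10 and 11.13 in the Sirt1 inactive arrays and 11.00, 10.99 and 10.91 in the control arrays. The groups did not overlap, and the Ppif difference was 0.18 (SE 0.06; limma, unadjusted p = 0.02, adjusted p = 0.959). Cps1, a urea cycle enzyme activated by SIRT5, was dim and differed by -0.22 (SE 0.08; limma, unadjusted p = 0.0299, adjusted p = 0.959), or -0.15 without control replicate 3. Levels of transcripts say nothing of the acetylation of their proteins.

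Among 14 partners and substrates of SIRT2, SIRT6 and SIRT7, all but 1 had differences between -0.08 and 0.06. The exception was Aldh1a1, a retinaldehyde dehydrogenase that SIRT2 deacetylates, at 8.39, 8.99 and 9.12 in the Sirt1 inactive arrays and 9.41, 9.38 and 9.99 in the control arrays. Replicate 3 was the highest in both genotypes and the groups did not overlap. The Aldh1a1 difference was -0.76 (SE 0.23, 95% interval -1.30 to -0.22), and 0.1% of probe sets had a larger absolute difference, but it did not pass (limma, unadjusted p = 0.0126, adjusted p = 0.959). With 1 array left out it ran from -0.90 to -0.54, and it was -0.56 without control replicate 3 and, in a separate fit, -0.56 with array weights. With the replicate block its unadjusted p was 0.00144 (limma, adjusted p = 0.52). Mybbp1a, a nucleolar protein that binds SIRT7, differed by 0.06 (SE 0.08).

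The 11 zinc-dependent histone deacetylases form the other class of deacetylases and need no NAD. Of these 6 were above and 5 below 0, with a median of 0.001. Hdac9, a class II enzyme, read 8.80, 8.68 and 8.96 in the Sirt1 inactive arrays and 9.24, 8.97 and 9.31 in the control arrays. Every Sirt1 inactive array was below every control array, and replicate 2 was the lowest and replicate 3 the highest in both genotypes. The Hdac9 difference was -0.36 (SE 0.11, 95% interval -0.62 to -0.10; limma, unadjusted p = 0.0137, adjusted p = 0.959), and with the replicate block its unadjusted p was 0.00134 (limma, adjusted p = 0.52). With array weights the Hdac9 difference was -0.21 with an unadjusted p of 0.082, and with 1 array left out it ran from -0.46 to -0.29, with an unadjusted p of 0.0501 without Sirt1 inactive replicate 2. The remaining 10 lay between -0.08 and 0.08, among them Hdac10 at -0.08 (SE 0.11).

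**Figure D4:**
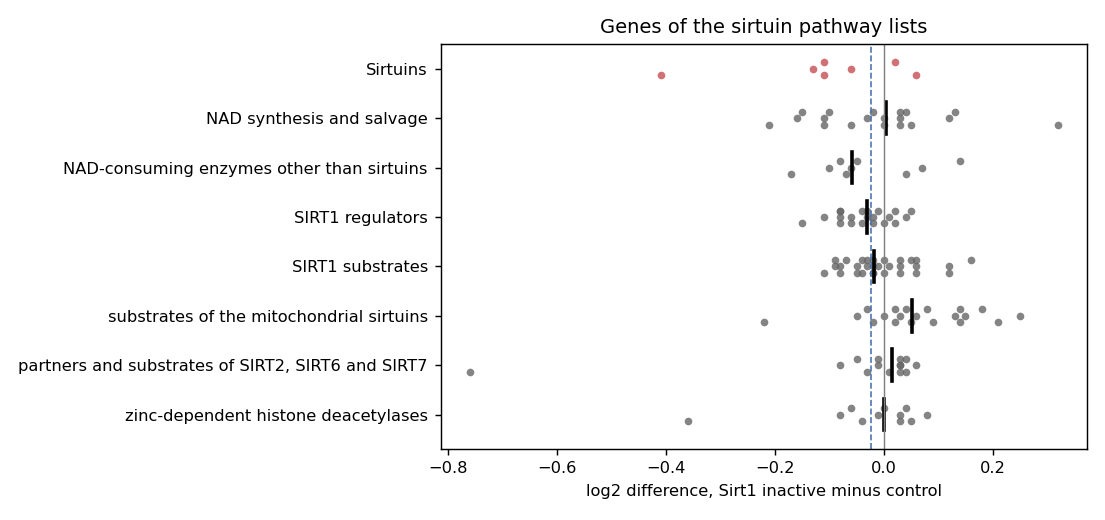
Log2 difference, Sirt1 inactive minus control, of each sirtuin (red points) and of each measured gene in 7 pathway lists (grey points); black bars are list medians and the dashed line is the median of all genes, -0.024. Aldh1a1 at -0.76, Sirt1 at -0.41 and Hdac9 at -0.36 lie lowest, and none of the points passed the test over all probe sets.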

How the data were processed

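The table deposited by the authors holds log2 values that RMA produced, per the submitters' processing notes; its version and the build behind the annotation are not given here. The log2 scale was read from the values (3.02 to 13.62). Arrays have no read depth, and their number limits the precision: the median SE of a difference was 0.080. Of 34760 probe sets, the 22961 with at least 1 annotated gene were fitted with limma 3.58.1 in R 4.3.3 (genotype as the term, empirical Bayes, two-sided, Benjamini-Hochberg over all tested, threshold 0.05), and the fit was tested on simulated data. Differences are Sirt1 inactive minus control. Groups came from the sample titles, and no column was left unassigned. The members and lists were chosen with earlier results of these data known. Shares within a list therefore cannot be weighed against those of all probe sets. The lists had 188 entries, of which 177 were measured; the rest are not analysed here. Named in the text are the sirtuins and the 2 members of each pathway list with the smallest p. The 5 genes most like Sirt1 and the 2 most like each other sirtuin are named too. Defining markers and some other members of the marker lists are named without a single rule. Of the marker lists, those beside a sirtuin result are given. Arrays with the same replicate number deviated together from their group means (correlations 0.47, 0.36 and 0.27 over probe sets, against -0.32 to -0.02 for other numbers). Deviations within a group cancel, so positive values for the same number make the others negative on balance. The contrast is thus weak support for pairing, and the block was tried as an alternative only. Other alternatives were other scalings, array weights, an intensity trend, a brightness filter, all probe sets and each array left out. Sequences are from RefSeq (GRCm38.p6); all 7 sirtuins matched by symbol. No protein sequences were used here.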

Additional observations from a re-analysis of the deposited data

How the results depend on the processing

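No sirtuin passed under any alternative run (limma, 14 alternatives each, 13 for Sirt5, which is dimmer than the median of the tested probe sets). Sirt1, Sirt2, Sirt4, Sirt5 and Sirt6 kept their direction in all of these; the Sirt1 difference ran from -0.47 to -0.36 with 1 array left out and from -0.47 (array weights) to -0.38 (array medians subtracted) otherwise, with adjusted p from 0.51 to 1. Sirt3 ran from -0.021 to 0.059 with 1 array left out, and Sirt7 was 0.044 with array weights; Nampt ran from -0.063 to 0.10 and Hdac10 from -0.20 to 0.001 with 1 array left out. The cause was not tested. The Sirt1 difference beyond the other sirtuins was -0.29 to -0.44 with 1 array left out, and -0.35 with the replicate block (exact sign-flip p = 0.25, the smallest that 3 pairs allow). The replicate block changed no call, but at an unadjusted p under 0.05 it gave 1741 probe sets against 830. That count was 1376 over all probe sets and 312 over the brighter ones, where more or fewer were tested, and 456 (without Sirt1 inactive replicate 2) to 1453 (without control replicate 1) with 1 array left out. Averaging the probe sets of a gene changed nothing, as each sirtuin has 1. With 1 array left out, list medians ran from -0.030 to 0.001 for NAD synthesis, -0.085 to -0.030 for NAD consumers, -0.058 to -0.014 for SIRT1 regulators, -0.027 to 0.005 for SIRT1 substrates, 0.057 to 0.082 for mitochondrial substrates, -0.024 to 0.026 for partners of the other sirtuins and -0.001 to 0.020 for zinc-dependent deacetylases; array medians subtracted moved each of them up, to 0.029, -0.034, -0.005, 0.007, 0.076, 0.040 and 0.026. Unadjusted p-values with 1 array left out (limma) ran from 0.0168 to 0.101 for Qprt, 0.0182 to 0.0978 for Cps1, 0.0291 to 0.0688 for Ppif, 0.00352 to 0.0501 for Hdac9 and 0.0107 to 0.0321 for Aldh1a1.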
